A study of Rattus norvegicus with 30 samples.

Results

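Glucocorticoid signalling in the brain was described in 30 rats through 10 genes chosen by name: Nr3c1 and Nr3c2, which encode the glucocorticoid and the mineralocorticoid receptor, and Fkbp5, Sgk1, Tsc22d3, Zbtb16, Pdk4, Cdkn1a, Mt1 and Mt2A, which are known to be induced by glucocorticoids. Of the 10, 9 were found by symbol among the 17134 genes of the RNA-seq table, 2 receptors and 7 induced genes. Tsc22d3 was not matched, so its expression is not analysed here, and only its promoter windows are counted below. The groups were 10 WT, 10 HIP and 10 AKO rats, all male and on a normal diet. HIP rats are Sprague-Dawley rats in which human amylin, a peptide that forms amyloid, is expressed in the β-cells of the pancreas, and they develop type-2 diabetes. WT rats express the amylin of the rat, which does not form amyloid, and AKO rats lack amylin. Of the AKO rats, 4 have names with KAH and 6 have names with AKO, and what the names stand for is not known. Iapp, the gene of amylin, is not analysed here, so the genotypes were not checked on it.

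Glucocorticoids reach the brain with the blood and bind a pair of nuclear receptors, the mineralocorticoid receptor at low hormone levels and the glucocorticoid receptor when the hormone is high, at its daily peak or under stress. The occupied receptor enters the nucleus and raises transcription of a set of genes that many cell types share, among them the co-chaperone Fkbp5, which lowers the affinity of the receptor for the hormone and so closes a feedback loop. In the cortex these genes are expressed in neurons, glia and vessel cells, and several of them also respond to fasting, metals, hypoxia or DNA damage.

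The labels call the tissue frontal cortex, whereas the paper calls it hippocampus or cerebral cortex. A list of 7 neocortex genes had a median log2 level of 10.30 in WT, 10.37 in HIP and 10.07 in AKO rats. Single libraries stood apart from their groups. In WT rat 10RT43 the neocortex list was at 5.89 and the cerebellum list at 13.02, against a WT median of 4.48, and its 6 cerebellum genes summed to 57647 normalized counts, led by Gabra6 with 17979. The tissue label of this rat is therefore not borne out by its markers. In HIP rat 10RT46 the 4 pineal gland genes summed to 22241 normalized counts, of which Tph1 gave 19081, and the 7 choroid plexus genes to 17237. HIP rat 12RT23 had 6921 normalized counts on the cerebellum genes. The olfactory bulb genes were above a log2 level of 7 in WT rats 10RT50, 10RT51 and 10RT57, in HIP rats 10RT37, 10RT49 and 10RT53, and in AKO rats 4KAH35, 6AKO35, 6KAH99 and 7AKO28. The choroid plexus genes were at 6.98 in AKO rat 7AKO19.

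Another AKO rat, 4KAH27, had the highest value of all 30 rats in 6 of the 9 genes studied, compared with 1888 of 17103 genes (11.04%) in the whole table. It had the lowest value of the 30 rats in 4 of 7 oligodendrocyte and 4 of 6 microglia genes, compared with 10.47% of all genes. The 7 oligodendrocyte markers summed to 77789 normalized counts in this rat, led by Mbp with 47840, and to 71070 to 134430 in the other AKO rats, so the sum and Mbp were not apart. The 6 microglia markers summed to 3023, led by C1qa with 1288, and to 3475 to 6009.5 in the other AKO rats. The 7 striatum genes summed to 16886 in this rat, led by Ppp1r1b with 8454, to 2769 to 9777 in the other AKO rats and to 18170 in WT rat 10RT55. The part of these cells and regions in the results was not tested. In AKO rat 6KAH98, 17.2% of genes were at the highest value of the 30 rats, and in WT rat 10RT43 18.8%. In bulk tissue, fewer cells of a type and less RNA per cell cannot be told apart. Results that moved without 4KAH27 are given both ways.

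Estimated reads on genes were 12.92 to 21.15 M in WT rats with a median of 19.12 M, 13.69 to 16.67 M in HIP rats with a median of 15.66 M, and 12.90 to 23.62 M in AKO rats with a median of 16.08 M. Rats 4KAH27 and 10RT43 were at the lowest values of their groups. At this depth each of the 9 genes had a mean above the minimum of 1 normalized count in all comparisons, and 9 of 9 were tested.

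Between HIP and WT rats, the comparison the study is about, none of the 9 genes differed beyond the spread of the rats. The 9 log2 fold changes ran from -0.01 for Nr3c1 to 0.24 for Zbtb16 with a median of 0.08, against a median of 0.00 over all tested genes. Sgk1 had the smallest p-value, with a log2 fold change of 0.19 (95% interval -0.05 to 0.43, limma, two-sided, p = 0.116). With limma's adjusted p-value 0 of the 9 were called (0% of 17085 tested genes), and with p < 0.05 unadjusted again 0 (2.57%, 439 genes). The smallest adjusted p-value of the 9 was 0.999. The intervals of the receptors were narrow, -0.21 to 0.20 for Nr3c1 and -0.10 to 0.19 for Nr3c2. That of Mt1 was wider, from -0.46 to 0.86, so differences within it are not excluded by these rats. Leaving out HIP rat 10RT37 took Sgk1 to a log2 fold change of 0.24 and 1 gene under an unadjusted p-value of 0.05.

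Against each of the other groups, 5 genes had p < 0.05 unadjusted in AKO rats and none passed the adjusted test. Means of the metallothioneins Mt1 and Mt2A and the cell cycle inhibitor gene Cdkn1a were higher in AKO rats, and those of the receptor genes Nr3c1 and Nr3c2 lower. Microglia markers were also higher in most AKO rats. Their summed counts were 5092 to 6009.5 in 4KAH35, 6AKO35, 6AKO52, 6KAH98, 7AKO19, 7AKO28 and 7AKO42, above the highest WT rat, at 5011.8. Rats 4KAH27, 6KAH99 and 7AKO30 were at 3023 to 4894, and HIP rats at 3323 to 4178 apart from 10RT48, at 9952. The astrocyte list had a median log2 level of 11.43 in WT, 11.45 in HIP and 11.64 in AKO rats, where 4KAH27 was lowest at 10.73. The part of microglia and astrocytes in these differences was not tested. In AKO vs. WT rats, 0 of the 9 genes had a limma adjusted p-value under 0.05 (0.0997% of 17058 tested genes, 17 genes) and 5 had p < 0.05 unadjusted (9.34%, 1594 genes). In HIP vs. AKO rats, 0 of the 9 genes had a limma adjusted p-value under 0.05 (0.17% of 17092 tested genes, 29 genes) and 5 an unadjusted p-value under 0.05 (12.7%, 2179 genes). The smallest adjusted p-values of the 9 were 0.377 and 0.234. The median log2 fold change of the 9 genes was 0.41 in AKO vs. WT rats and -0.23 in HIP vs. AKO rats, beside medians of 0.00 over all tested genes. Without 4KAH27 these medians of the 9 were 0.24 and -0.05. The comparisons share rats, so their values stand side by side and are not independent of each other. The 17 genes called in AKO vs. WT rats became 39 without AKO rat 4KAH27 and 38 without AKO rat 6KAH99, and 10 or 11 without WT rat 10RT38, 10RT45 or 10RT47 or AKO rat 6AKO52 or 7AKO19. The 29 genes called in HIP vs. AKO rats became 70 without HIP rat 10RT46 and 58 without AKO rat 4KAH27, and 17 to 19 without HIP rat 10RT41, 10RT42, 10RT52, 10RT53 or 12RT23 or AKO rat 6AKO52, 7AKO19 or 7AKO28.

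**Figure D1:**
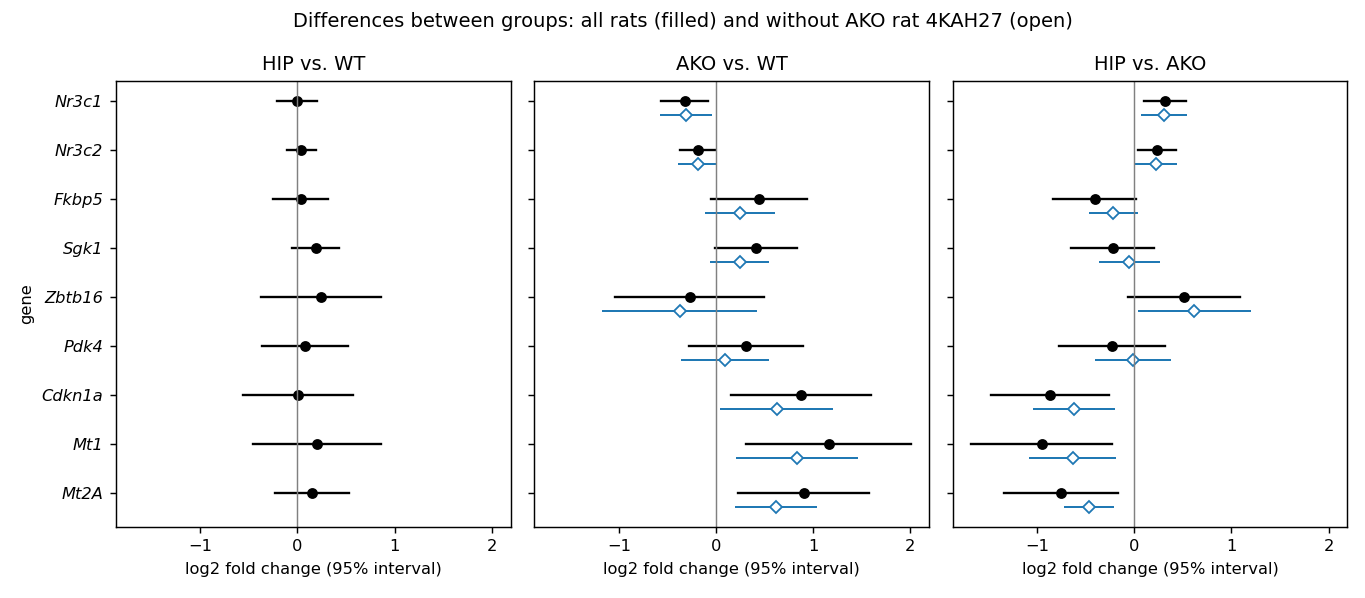
Log2 fold change of each gene (horizontal axis) with its 95% interval in each comparison; filled circles are all rats and open diamonds the fits without AKO rat 4KAH27. In AKO vs. WT rats Mt1 moved from 1.16 with all rats to 0.84 without that rat, and Nr3c1 from -0.32 to -0.31.

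The plot of fold changes shows where AKO rat 4KAH27 carried a difference. Without it, Fkbp5 went from a log2 fold change of 0.44 to 0.25 and Pdk4 from 0.31 to 0.09 in AKO vs. WT rats. The count under an unadjusted p-value of 0.05 was then 4 of 9 in AKO vs. WT rats (10.3% of tested genes), with Nr3c2 no longer among them although its log2 fold change hardly moved, from -0.19 to -0.18. In HIP vs. AKO rats it was 6 of 9 (14.1%), with Zbtb16 added at a log2 fold change of 0.62. No limma adjusted p-value of the 9 genes was under 0.05 without this rat, and the smallest was 0.099, that of Mt2A in HIP vs. AKO rats, within a range of 0.099 to 0.412 when each rat was left out in turn.

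Nr3c1, the glucocorticoid receptor gene, ranged from 1207.5 to 1924 normalized counts in WT rats (median 1540.2), from 1214 to 1815 in HIP rats (median 1552) and from 736 to 1563 in AKO rats (median 1271.5). The groups overlapped, with AKO rats at the lower end of the WT range, 1 of 10 AKO rats above the WT median and AKO rat 6KAH98 far below the rest. The means were 1556 ± 269 in WT, 1542 ± 213 in HIP and 1246 ± 210.5 in AKO rats (SD, n = 10 per group). The log2 fold change in AKO vs. WT rats was -0.32 (standard error 0.12, p = 0.0116, limma adjusted p = 0.388), and adjusted p-values ran from 0.225 to 0.518 over its alternatives. In HIP vs. AKO rats it was 0.32 (standard error 0.11, p = 0.00684, adjusted p = 0.234). Without AKO rat 6KAH98 the AKO vs. WT value was -0.24, and without the rats rich in genes of other tissues it was -0.55. The latter setting kept 6 WT, 5 HIP and 5 AKO rats, with 6KAH98 and 4KAH27 among the 5, so each weighs more there.

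Nr3c2, the mineralocorticoid receptor gene, ranged from 749 to 940.4 normalized counts in WT rats (median 850), from 746 to 1129 in HIP rats (median 876.5) and from 487 to 881 in AKO rats (median 755). The ranges overlapped for most rats, and 6KAH98 was again the lowest AKO rat. The log2 fold change was -0.19 in AKO vs. WT rats (standard error 0.09, p = 0.0449, limma adjusted p = 0.521) and 0.23 in HIP vs. AKO rats (standard error 0.09, p = 0.0241, adjusted p = 0.323). Leaving out any of 13 rats, AKO rats 4KAH27 and 6KAH98 among them, took the AKO vs. WT difference over an unadjusted p-value of 0.05, with values from -0.21 to -0.12 over the rats left out in turn.

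**Figure D2:**
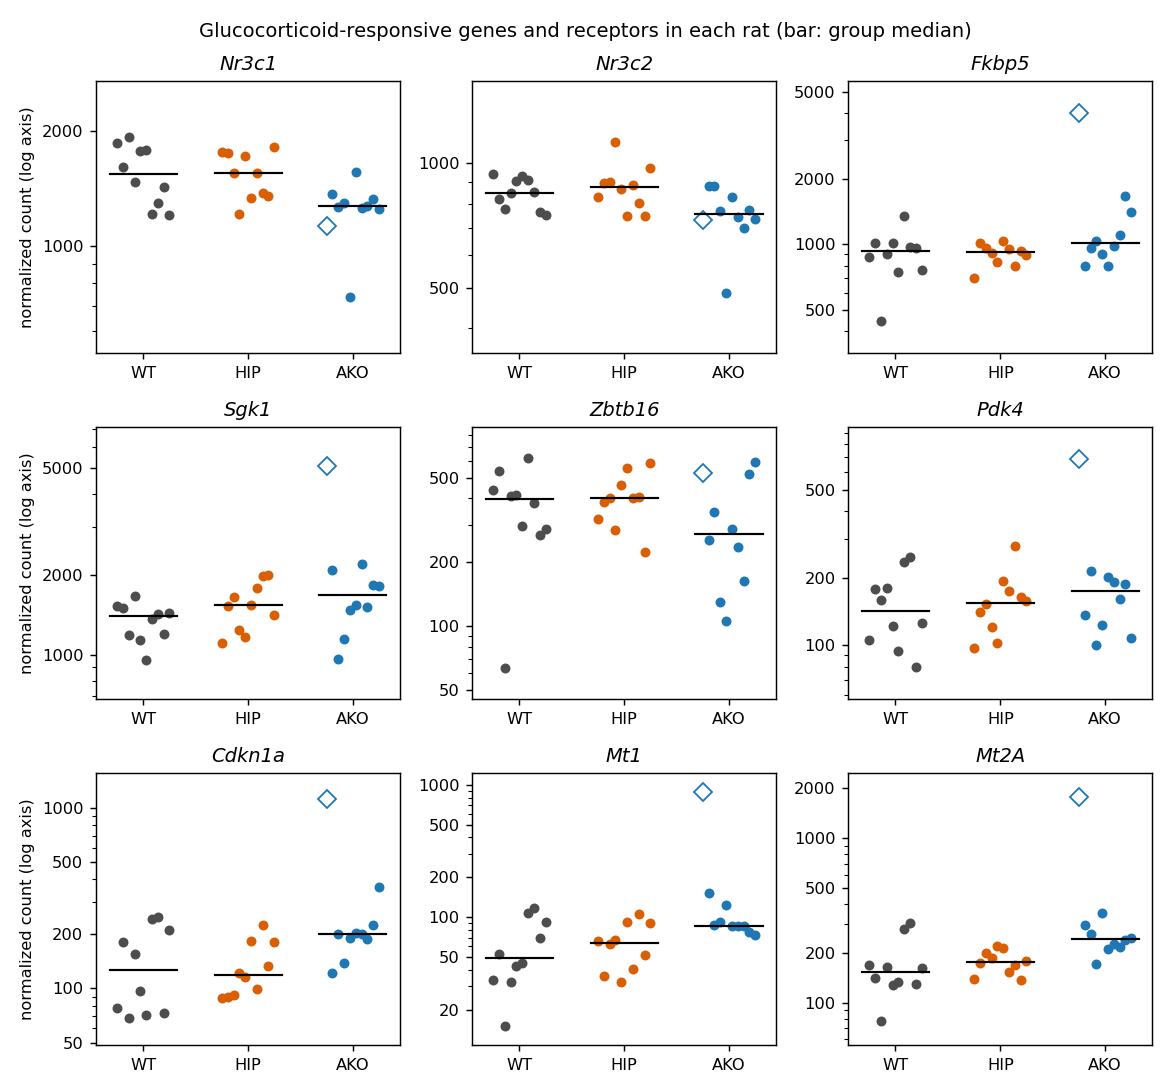
Normalized count of each gene in each rat on a log axis, 1 point per rat and a bar at the group median, with AKO rat 4KAH27 as an open diamond. That rat reached 883 for Mt1 and 1780.1 for Mt2A, where no other AKO rat exceeded 151.2 and 351.1.

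Fkbp5, which encodes a co-chaperone of the receptor complex, ranged from 445 to 1352 normalized counts in WT rats (median 936.5), from 705 to 1034 in HIP rats (median 922) and from 796 to 3988 in AKO rats (median 1011). The groups overlapped almost entirely apart from AKO rat 4KAH27, and the next AKO rat, 7AKO30, was at 1656. The lowest of all was WT rat 10RT43. Fkbp5 had a log2 fold change of 0.44 in AKO vs. WT rats (standard error 0.24, p = 0.0769, limma adjusted p = 0.57) and of -0.41 in HIP vs. AKO rats (standard error 0.21, p = 0.0595, adjusted p = 0.41). Without 4KAH27 they were 0.25 and -0.22, and the first was 0.34 without WT rat 10RT43.

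Sgk1, a kinase that acts on ion channels and transporters, ranged from 958 to 1663 normalized counts in WT rats (median 1396), from 1107 to 1986 in HIP rats (median 1532) and from 964 to 5097.5 in AKO rats (median 1675.5). Apart from 4KAH27 the AKO rats spanned 964 to 2185, and 8 of 10 AKO and 7 of 10 HIP rats were above the WT median. Its log2 fold change in AKO vs. WT rats was 0.41 (standard error 0.20, p = 0.0556, limma adjusted p = 0.539), and 0.24 without 4KAH27. In HIP vs. AKO rats it was -0.22 (p = 0.289), and -0.05 without that rat. In AKO vs. WT rats the unadjusted p-value of Sgk1 was under 0.05 in 5 of 13 alternatives and that of Fkbp5 in 3 of 13. For HIP vs. AKO rats this was so in 1 of 13 for Sgk1 and 4 of 13 for Fkbp5.

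Zbtb16, a zinc finger transcription factor, ranged from 63.4 to 622 normalized counts in WT rats (median 397), from 224 to 586 in HIP rats (median 401) and from 106 to 596 in AKO rats (median 272). It is 1 of the 3 genes in which 4KAH27 was not the highest rat, at 525. The lowest rats were 10RT43 in WT and 6KAH98 in AKO, the same libraries that stood apart in the whole table. The log2 fold change was -0.27 in AKO vs. WT rats (standard error 0.37, p = 0.473), with -0.53 to -0.12 when each rat was left out in turn, the ends being without 10RT43 and without 6KAH98, and 0.51 in HIP vs. AKO rats (standard error 0.28, p = 0.0771).

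Pdk4, a kinase that inhibits pyruvate dehydrogenase and spares glucose, ranged from 80.1 to 250 normalized counts in WT rats (median 142.6), from 97.2 to 278 in HIP rats (median 155.4) and from 100.3 to 683 in AKO rats (median 175). Without 4KAH27 the AKO rats lay inside the WT range, the next being 216. No comparison of Pdk4 had an unadjusted p-value under 0.05, and the log2 fold change in AKO vs. WT rats was 0.31 (standard error 0.28, p = 0.291). In HIP vs. AKO rats it was -0.23 (p = 0.389), and without 4KAH27 the values were 0.09 and -0.01.

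Cdkn1a, which encodes the cell cycle inhibitor p21 and is also a target of p53, ranged from 68.2 to 249 normalized counts in WT rats (median 126), from 88.8 to 223.5 in HIP rats (median 119) and from 121 to 1114 in AKO rats (median 199). Of the 10 AKO rats 9 were above the WT median, and the ranges overlapped. The highest WT values were those of the rats rich in olfactory bulb genes, 10RT51 at 249, 10RT50 at 243 and 10RT57 at 211. Cdkn1a had a log2 fold change of 0.88 in AKO vs. WT rats (standard error 0.35, p = 0.0199, limma adjusted p = 0.437) and of -0.87 in HIP vs. AKO rats (standard error 0.29, p = 0.00702, adjusted p = 0.234). Without 4KAH27 these values were 0.63 and -0.62. With the KAH-named rats alone in the AKO group the first was 1.09, and its unadjusted p-value was over 0.05. Without the rats rich in genes of other tissues the values were 1.55 in AKO vs. WT and -1.51 in HIP vs. AKO rats. Rat 4KAH27 was then 1 of only 5 AKO rats, so these values are not free of it.

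Mt1 and Mt2A encode metallothioneins, small proteins that bind zinc and copper. Mt1 ranged from 15.1 to 116.5 normalized counts in WT rats (median 48.7), from 32.1 to 106 in HIP rats (median 63.9) and from 73.4 to 883 in AKO rats (median 86.1). All 10 AKO rats exceeded the WT median, the next after 4KAH27 being 4KAH35 at 151.2, while the 3 highest WT rats were those rich in olfactory bulb genes. The log2 fold change was 1.16 in AKO vs. WT rats (standard error 0.41, p = 0.00988, limma adjusted p = 0.377) and -0.96 in HIP vs. AKO rats (standard error 0.35, p = 0.0125, adjusted p = 0.272). Without 4KAH27 they were 0.84 and -0.63. With the AKO-named rats alone they were 0.68 and -0.47, both with an unadjusted p-value over 0.05, and with the KAH-named rats alone the first was 1.89. Without the rats rich in genes of other tissues the second was -1.70, with 4KAH27 as 1 of the 5 AKO rats that stayed.

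Mt2A ranged from 77.7 to 305 normalized counts in WT rats (median 152.7), from 136.6 to 221 in HIP rats (median 177) and from 173 to 1780.1 in AKO rats (median 244). Again all 10 AKO rats were above the WT median, and the highest WT rats, 10RT51 and 10RT50, reached into the AKO range. The log2 fold change was 0.91 in AKO vs. WT rats (standard error 0.32, p = 0.0108, limma adjusted p = 0.379) and -0.75 in HIP vs. AKO rats (standard error 0.28, p = 0.0137, adjusted p = 0.279). Without 4KAH27 these were 0.62 and -0.47. With the AKO-named rats alone they were 0.52 and -0.37, and with the KAH-named rats alone 1.49 and -1.34. Without the rats rich in genes of other tissues the second was -1.06, with an unadjusted p-value over 0.05. Here too 4KAH27 was 1 of the 5 AKO rats that stayed. The AKO rats highest in Mt1, 4KAH27 and 4KAH35, also had the highest sums of the 30 over the 3 blood genes measured of a list of 6. These sums were 16047 and 40680 normalized counts, led by Hba-a2 with 16021 and 40576, against 2864 to 14906 in the others. By mean log2 level of the blood genes HIP rat 10RT37, at 7.97, was above 4KAH27, at 7.19. The mean log2 level of these genes was 6.18 in WT, 6.20 in HIP and 6.70 in AKO rats, and their part in the metallothionein values was not tested.

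Both metallothionein genes are shown with their promoters because they had the highest r of the 36 pairs over all 30 rats, though not without 4KAH27, and lie next to each other, with 0 genes between Mt1 and Mt2A and 0 between Mt2A and Mt3. The sequences are the 250 bases before the start of each gene in RefSeq (GRCr8), Mt1 at chr19:10832976-10833225 and Mt2A at chr19:10838709-10838958, both on the minus strand and written 5′ to 3′. Capitals mark matches on either strand to the letters TGCACNC or TGCGCNC, the core of the element through which the zinc sensor Mtf1 is known to act.
Mt1: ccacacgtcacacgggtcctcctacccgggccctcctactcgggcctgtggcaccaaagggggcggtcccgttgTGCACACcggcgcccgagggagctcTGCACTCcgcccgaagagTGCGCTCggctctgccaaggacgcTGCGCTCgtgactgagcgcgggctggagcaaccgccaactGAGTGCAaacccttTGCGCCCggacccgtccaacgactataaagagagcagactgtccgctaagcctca
Mt2A: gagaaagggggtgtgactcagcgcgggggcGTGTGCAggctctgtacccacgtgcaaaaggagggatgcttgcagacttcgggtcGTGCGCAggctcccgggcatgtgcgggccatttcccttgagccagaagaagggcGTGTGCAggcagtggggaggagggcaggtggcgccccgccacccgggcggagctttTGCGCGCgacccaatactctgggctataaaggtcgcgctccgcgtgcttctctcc
The Mt1 window held 6 matches and the Mt2A window 4. At least 1 match was found in 20.6% of 33469 promoters of this length, 6 or more in 0.0269% and 4 or more in 0.266%. The letters AGAACA, a half-site bound by the glucocorticoid receptor and its relatives, were in 17.5% of promoters and in none of the 13 windows that RefSeq gave for 8 of the 10 genes. A match is a stretch of letters, not a bound site, and the window covers little of the DNA that controls a gene. Mt3, the metallothionein of neurons, was at 1591 normalized counts in 4KAH27 against a median of 2425 in the other 29 rats, whereas Mt1 and Mt2A were 12.0 and 9.95 times the median of the others.

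Beyond the 9 genes, 22 of 24 other genes known to be induced by glucocorticoids were measured. In HIP vs. WT rats 1 had p < 0.05 unadjusted (2.57% of all tested genes), and limma's adjusted p-value called 0. In AKO vs. WT rats 6 did (9.34% of all), all higher in AKO rats, again with 0 called, and the median log2 fold change of the 22 was 0.28. In HIP vs. AKO rats 9 did (12.7% of all), all lower in HIP rats, with 1 called and a median of -0.24. The medians over all tested genes were 0.00 in each comparison. Without 4KAH27 the counts were 4 (10.3% of all) and 7 (14.1% of all), and the medians 0.13 and -0.10.

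Lcn2, which encodes the iron-siderophore binding protein lipocalin-2, was the gene called. It ranged from 0 to 15.2 normalized counts in WT rats (median 6.10), from 1.04 to 8.13 in HIP rats (median 5.10) and from 13.6 to 281 in AKO rats (median 23.4). The HIP and AKO ranges did not overlap, and the WT range reached into that of the AKO rats. Lcn2 was lower in HIP vs. AKO rats by a log2 fold change of -2.56 (standard error 0.43, limma adjusted p = 0.00874; 0.17% of tested genes were called). It was called without 4KAH27 too, at -2.20 (adjusted p = 0.00117). In AKO vs. WT rats its log2 fold change was 2.67 (standard error 0.58, adjusted p = 0.079). Sult1a1, a sulfotransferase, was at 191 ± 63.0 normalized counts in WT, 206 ± 57.1 in HIP and 312 ± 52.5 in AKO rats (n = 10 per group, SD), with 0.75 as the log2 fold change in AKO vs. WT rats (standard error 0.15, limma adjusted p = 0.0506). Plin4, a lipid droplet protein, had 0.89 (adjusted p = 0.263) and Rasd1, a small G protein, 0.39 (adjusted p = 0.446) in the same comparison.

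The shares of all tested genes with p < 0.05 unadjusted, 2.57%, 9.34% and 12.7% in HIP vs. WT, AKO vs. WT and HIP vs. AKO rats, are the background for the counts of the lists that follow. Of 19 chaperones and cofactors of the receptor, 0, 1 and 2 had an unadjusted p-value under 0.05 in HIP vs. WT, AKO vs. WT and HIP vs. AKO rats, and 0 were called by limma in any of them. Hspa8, a constitutive heat shock protein, was at 3666 ± 295 normalized counts in WT and 3188 ± 349 in AKO rats (n = 10 per group, SD), with -0.21 as the log2 fold change. Hsp90aa1, the chaperone that holds the receptor ready to bind hormone, had a log2 fold change of 0.20 in HIP vs. AKO rats (p = 0.00579), and Hspa4 one of 0.16 (p = 0.0248). The 4 measured genes of local steroid handling, Hsd11b1, H6pd, Srd5a1 and Abcb1b, had 0, 0 and 0. Counts this near the background are no result about these genes, and both lists kept theirs without 4KAH27. Hsd11b1, which regenerates active glucocorticoid in the cell, was at 568 ± 153.9 normalized counts in WT, 565 ± 161 in HIP and 615.5 ± 162 in AKO rats (SD, n = 10 per group).

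Among 6 peptides of the stress axis and their receptors the counts under an unadjusted p-value of 0.05 were 0, 3 and 2, with 0 called by limma (2.57%, 9.34% and 12.7% of all tested genes). Without 4KAH27 the 3 became 1, that of Avp, and the 2 stayed. The log2 fold changes of the others were then -0.38 for Crhr1 and 0.54 for Pomc, close to those with all rats. Crhr1, the main receptor of corticotropin-releasing hormone, had a log2 fold change of -0.45 in AKO vs. WT rats (p = 0.0264), and WT rat 10RT43 held its highest value, 1162. Avp, the vasopressin gene, had 0.88 (p = 0.0233) from few counts, with a median of 10.1 in AKO and 4.38 in WT rats. Pomc, the precursor of corticotropin, had 0.57 (p = 0.0332). Pituitary markers were also higher in AKO rats, the 4 measured, Pomc among them, having a mean log2 level of 1.49 in WT, 1.93 in HIP and 2.42 in AKO rats. Their summed counts were 13.1 to 31.5 in WT, 16.7 to 188 in HIP and 20.5 to 123 in AKO rats. The highest was HIP rat 10RT54, where Pomc led with 176, then 4KAH27, where Cga led with 80.9, and 6AKO52 with 112, where Pomc led with 61.8. In most rats 3 of the 4 were below 10, and their part was not tested. Crh was at a median of 91.2 normalized counts in AKO, 90.65 in WT and 58.6 in HIP rats, so its median was lower in HIP rats and not raised in AKO rats. Its log2 fold change was -0.45 in HIP vs. AKO rats (limma, p = 0.038).

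Counts for relatives of the induced genes and for other responses are read against the same 2.57%, 9.34% and 12.7% of all tested genes. Of 11 relatives and partners of Sgk1 and Pdk4, 0, 1 and 2 had p < 0.05 unadjusted, with 0 called by limma. Pdp2, a phosphatase that works against the Pdk kinases, had a log2 fold change of -0.28 in AKO vs. WT rats (p = 0.00895), and Pdk1 one of 0.28 in HIP vs. AKO rats (p = 0.009). Of 5 zinc and metallothionein genes other than Mt1 and Mt2A the counts were 0, 0 and 1, the 1 being Mtf1 with a log2 fold change of 0.20 in HIP vs. AKO rats (p = 0.0381). Of 10 genes of the p53 pathway, which shares Cdkn1a, they were 1, 0 and 1: Gadd45a had -0.37 in HIP vs. WT rats (p = 0.0241) and Bax -0.23 in HIP vs. AKO rats (p = 0.0291). The last was -0.19 without 4KAH27 and over an unadjusted p-value of 0.05. None of 8 activity genes had p < 0.05 unadjusted, and limma called 0. Among 11 clock genes the counts were 0, 2 and 0, with Dbp at -0.33 (p = 0.028) and Nr1d2 at -0.36 (p = 0.0422) in AKO vs. WT rats. Without 4KAH27 the clock counts were 4 in AKO vs. WT and 1 in HIP vs. AKO rats. Among 7 hypoxia genes they were 0, 2 and 1, with the glucose transporter gene Slc2a1 at 0.24 (p = 0.0467) and Egln3 at 0.37 (p = 0.0485) in AKO vs. WT rats. Without 4KAH27, the highest rat in Slc2a1 at 5158 with the next at 3420, the hypoxia counts were 0 and 0. Slc2a1 was then at 0.16, while Egln3 was at 0.38 and so no smaller. The counts of the relatives of Sgk1 and Pdk4 were 1 and 3 without this rat. Limma's adjusted p-value called 0 genes of these lists in every comparison.

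**Figure D3:**
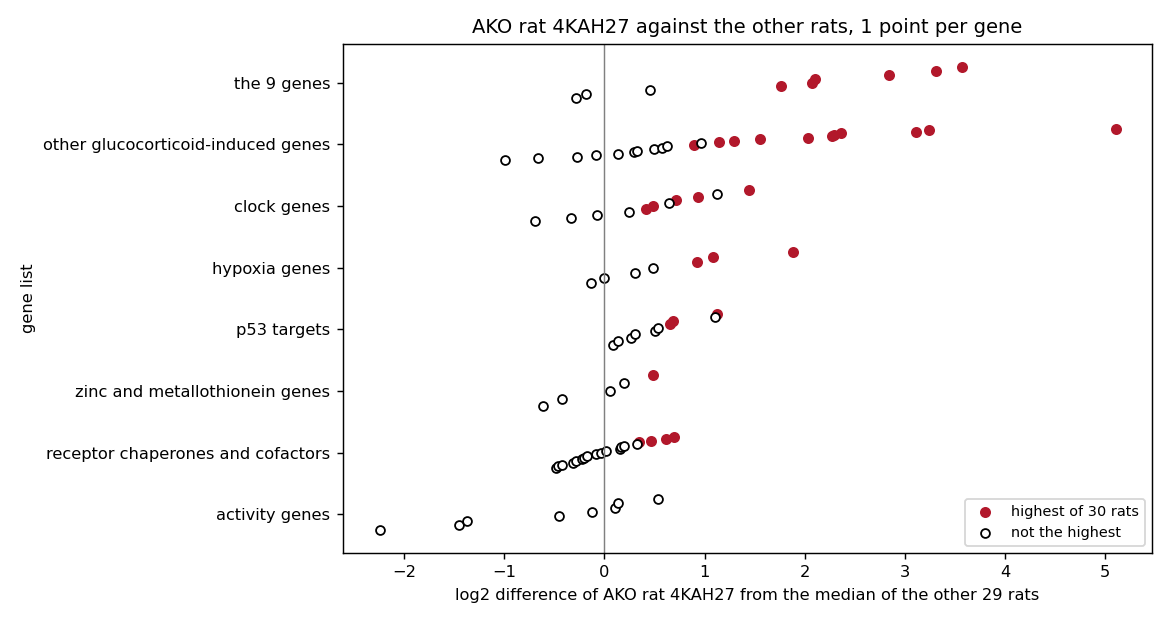
Log2 difference of AKO rat 4KAH27 from the median of the other 29 rats (horizontal axis), 1 point per gene and 1 row per gene list, red where this rat was the highest of the 30. It was highest in 6 of the 9 genes and in 11 of 22 other glucocorticoid-induced genes, and in 0 of 8 activity genes. Over all tested genes the share was 11.04%, and 0 of 8 is near it.

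The plot of rat 4KAH27 by gene list shows how far its values reached. Against the median of the other 29 rats it had 4.21 times the Fkbp5, 3.39 times the Sgk1, 4.32 times the Pdk4 and 7.19 times the Cdkn1a. The receptor genes were not high in it. The other glucocorticoid-induced genes in which it was highest were Angptl4, Cebpb, Cebpd, Ddit4, Errfi1, Klf15, Lcn2, Mfsd2a, Nfil3, Nfkbia and Plin4. Cebpd, a transcription factor of acute responses, was at 839 normalized counts against a median of 88.2, and Cebpb at 590 against 67.2. Errfi1 was at 3758 against 767, and Nfkbia, the inhibitor of NF-κB, at 2422 against 469. Its mean log2 level of the 22 genes was the highest of the 30 rats, 9.76 with 8.97 as the next, and the median difference over the genes was 0.93. It was not the highest in Per1, at 1836 against a median of 1229.5 and a highest other value of 2172, and Rasd1 was at 369 against a median of 445. Clock genes had it highest in 5 of 11, hypoxia genes in 3 of 7 and p53 pathway genes in 3 of 10, beside 11.04% of all tested genes. Activity genes ran the other way in part, Arc being at 1136 against a median of 5384.

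Rat-to-rat co-variation was measured on log2 values after subtraction of each group's mean, so that differences between groups did not enter. Of the 36 pairs of the 9 genes, 21 passed a Benjamini-Hochberg adjusted p-value of 0.05 by Pearson r (permutation test, two-sided), 19 positive and 2 negative. An r at least as far from 0 as the weakest of these, 0.43, was found in 24.9% of all pairs among 13083 genes whose mean reached 10 normalized counts, and in 58.3% of the 36. By Spearman's rho 10 did. Of the 21 pairs of induced genes 18 passed, with a median r of 0.64. Without 4KAH27 13 of the 36 pairs passed, 12 of them among the first 21. The weakest of the 13 was at 0.45, reached by 24.3% of all gene pairs and 36.1% of the 36 without that rat, and the median r of the induced pairs was 0.34. Within the groups that median was 0.56 in WT rats, 0.25 in HIP rats and 0.76 in AKO rats, and 0.06 in AKO rats without 4KAH27. With the rats rich in genes of other tissues left out as well, 3 pairs passed. The share of all gene pairs was measured only for r, with all 30 rats and without 4KAH27. Counts by rho and in other settings are therefore no result about the 9 genes.

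**Figure D4:**
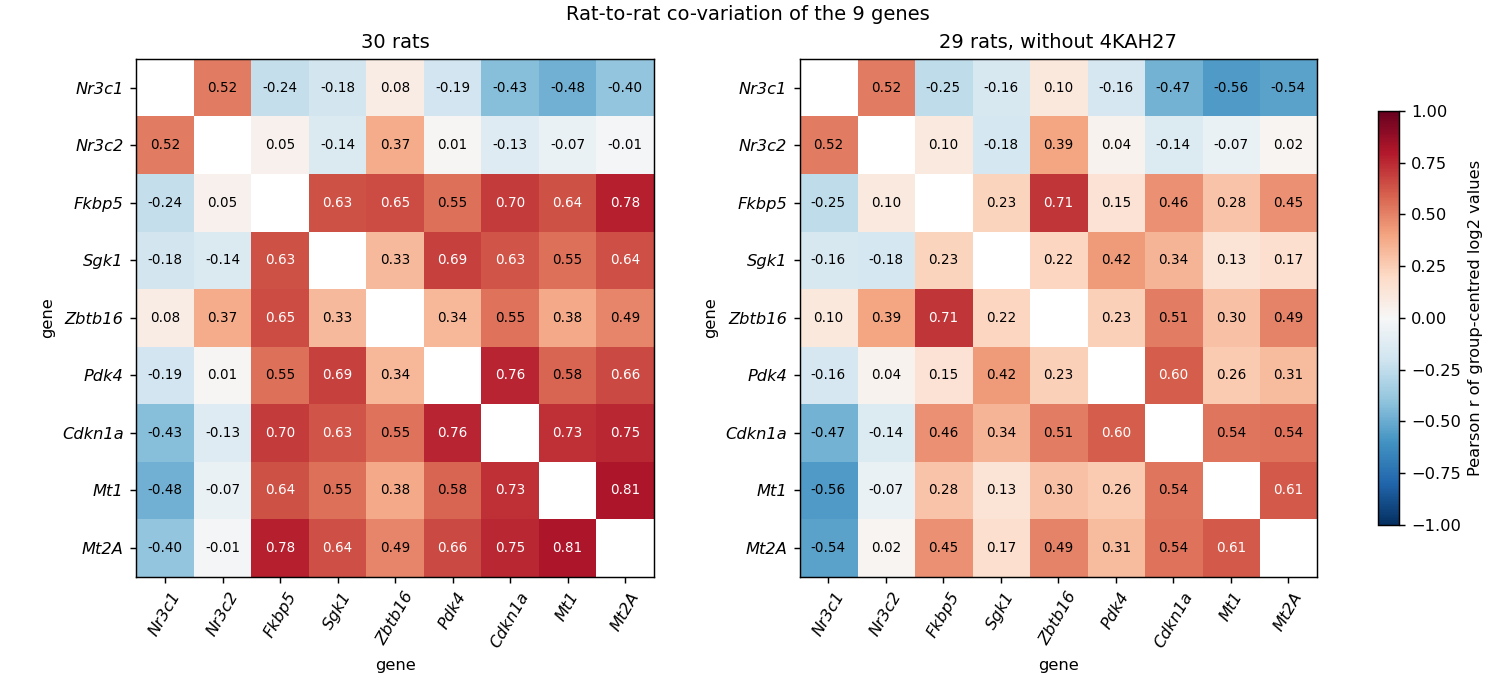
Pearson r of each pair of genes over 30 rats (left) and without AKO rat 4KAH27 (right), from group-centred log2 values, red positive and blue negative. Fkbp5 and Sgk1 went from 0.63 to 0.23 and Fkbp5 and Zbtb16 from 0.65 to 0.71.

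The heat map of r separates pairs that rested on 4KAH27 from pairs that did not. Fkbp5 and Zbtb16 kept their relation. Their r was 0.65 (permutation p = 0.00058, adjusted over 36 pairs 0.00261) and their rho 0.64 (permutation p = 0.00016, adjusted 0.00576), with r = 0.56 without the 2 rats farthest from the Fkbp5 median and 0.71 without 4KAH27. The relation passed in each of the 10 alternatives run and with each rat left out in turn, although r was 0.93 within WT, 0.17 within HIP and 0.58 within AKO rats. In WT rats 10RT43 was the lowest of the 10 in both genes, and r was 0.53 without 4KAH27, 10RT43 and 10RT46.

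Fkbp5 and Sgk1, in contrast, passed only with 4KAH27. Their r was 0.63 (permutation p = 0.00251, adjusted 0.00695) and rho 0.35 (permutation p = 0.0588, adjusted 0.125), and r was 0.29 without the 2 rats farthest from the Fkbp5 median and 0.23 without 4KAH27 (adjusted p = 0.377, in a range of 0.00204 to 0.457 over the alternatives). It was 0.54, and did not pass, without that rat and the rats rich in genes of other tissues, and 0.41 within HIP rats. Sgk1 and Pdk4 had r = 0.69 (permutation p = 0.00019, adjusted 0.000977) and rho = 0.54 (permutation p = 0.00227, adjusted 0.0136), with r = 0.62 without the 2 farthest rats. Without 4KAH27 it was 0.42 and no longer passed (adjusted p = 0.057, in a range of 0.000648 to 0.0849). It was 0.72 when the rats rich in genes of other tissues were left out as well, and passed.

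Mt1 and Mt2A had the highest r of the 36 pairs, 0.81 (permutation p = 1e-05, the smallest that 100000 resamples can give, adjusted 0.00018), with rho = 0.45 (permutation p = 0.0136, adjusted 0.0489) and r = 0.54 without the 2 farthest rats. It was 0.61 without 4KAH27. Within groups it was 0.80 in WT, 0.02 in HIP and 0.96 in AKO rats, the last falling to 0.58 without 4KAH27. Leaving out the rats rich in genes of other tissues and 4KAH27 together turned it to -0.13. The difference of r between groups was not tested.

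Pdk4 and Cdkn1a had r = 0.76 (permutation p = 1e-05, again the smallest possible, adjusted 0.00018) and rho = 0.62 (permutation p = 0.00038, adjusted 0.00684), with r = 0.59 without the 2 farthest rats and 0.60 without 4KAH27. It was 0.58, and did not pass, without the rats rich in genes of other tissues as well. Within groups it was 0.78 in WT, 0.69 in HIP and 0.78 in AKO rats, where it was 0.05 without 4KAH27. Fkbp5 and Mt2A had r = 0.78 (permutation p = 0.00011, adjusted 0.00066) and rho = 0.38 (permutation p = 0.0382, adjusted 0.086), with r = 0.35 without the 2 farthest rats. It was 0.45 without 4KAH27 and -0.24 without the rats rich in genes of other tissues as well.

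**Figure D5:**
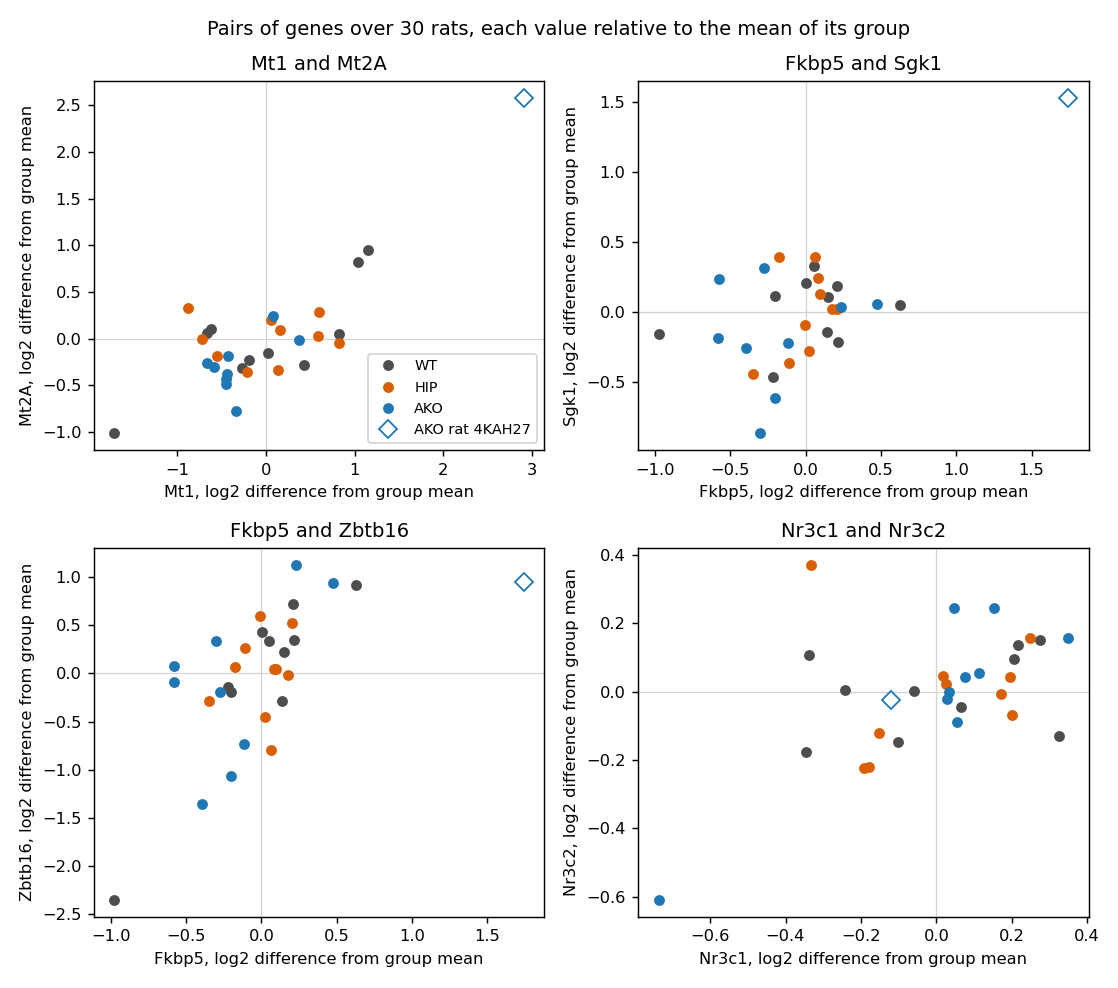
Log2 difference of each rat from its group mean for 4 pairs of genes, 1 point per rat, with AKO rat 4KAH27 as an open diamond. The diamond lies far from the other rats for Mt1 and Mt2A (r = 0.81, 0.61 without it) and for Fkbp5 and Sgk1 (0.63, 0.23 without it), and among them for Nr3c1 and Nr3c2 (0.52 with and without it).

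The scatter plots of pairs show the receptors apart from the induced genes. Nr3c1 and Nr3c2 had r = 0.52 (permutation p = 0.00474, adjusted 0.0107) and rho = 0.42 (permutation p = 0.0209, adjusted 0.0579). Single rats moved it in both directions. It was 0.16 without the 2 rats farthest from the Nr3c1 median, 0.21 and no longer passing without AKO rat 6KAH98, the lowest in both, and 0.71 without HIP rat 10RT46, rich in pineal gland genes. Without 6KAH98 and 10RT46 together the correlation of Nr3c1 and Nr3c2 was 0.49 (permutation p = 0.00919, adjusted 0.0158), a setting chosen after seeing the data. It was 0.30 within WT, 0.04 within HIP and 0.90 within AKO rats, and 0.96 over the 15 rats, 6KAH98 among them, that stayed when 4KAH27 and the rats rich in genes of other tissues were left out. With 6KAH98 left out in place of 4KAH27 it was 0.85.

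Both negative pairs held Nr3c1. With Mt1 its r was -0.48 (permutation p = 0.00999, adjusted 0.0189) and rho -0.56 (permutation p = 0.00142, adjusted 0.0126), with r = -0.55 without the 2 farthest rats and -0.56 without 4KAH27. Within groups it was -0.86 in WT, -0.36 in HIP and -0.25 in AKO rats, and the difference between groups was not tested. Both ends in WT rats were libraries that stood apart: 10RT43 had the highest Nr3c1 and the lowest Mt1, and 10RT50, 10RT51 and 10RT57, rich in olfactory bulb genes, the lowest Nr3c1 and the highest Mt1. Their part in the relation was not tested. The relation did not pass without 10RT43 and 10RT46, at -0.43, or without the rats rich in genes of other tissues, at -0.24, or without those and 4KAH27, at -0.60. With Cdkn1a its r was -0.43 (permutation p = 0.0185, adjusted 0.0318) and rho -0.57 (permutation p = 0.00108, adjusted 0.0126), with r = -0.55 without the 2 farthest rats and -0.47 without 4KAH27. Without the rats rich in genes of other tissues it was -0.05, and -0.10 without those and 4KAH27. Nr3c1 and Mt2A, also negative, did not pass by r with all 30 rats (r = -0.40, permutation p = 0.0356, adjusted 0.058). The pair passed by rho, -0.49 (permutation p = 0.00599, adjusted 0.027), and without 4KAH27, at r = -0.54 (adjusted 0.0166). Its r was -0.12 without the rats rich in genes of other tissues. Nr3c2 passed with no induced gene. Its largest r with one was 0.37, with Zbtb16 (permutation p = 0.0468, adjusted 0.0702; rho = 0.29, permutation p = 0.119, adjusted 0.191).

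The 9 genes were also set against marker lists of oligodendrocytes, astrocytes, microglia and endothelium and against activity, clock and hypoxia genes. Of these 63 relations 21 passed by Pearson r, 4 by Spearman's rho and 2 without 4KAH27. The share of all genes that pass with the same lists was not measured, so these counts are no result about the 9 genes. Of the 21, 10 were negative relations of induced genes with cell type lists, the largest that of Fkbp5 with the astrocyte list (r = -0.62, permutation p = 0.00095, adjusted 0.0129; rho = -0.38, permutation p = 0.0385, adjusted 0.173), which was -0.32 without the 2 farthest rats and -0.33 without 4KAH27. None of the 10 passed without 4KAH27, and the part of these cells was not tested. Both that passed without 4KAH27 belong to the receptors and the endothelium list. With the rats rich in genes of other tissues left out as well, none of the 63 relations passed, these 2 included. Of the endothelium list 4 of 6 genes were measured. The summed counts of this list ran from 1358 in 4KAH27, where Pecam1 led with 538, to 2678 in AKO rat 6KAH99, where Slco1c1 led with 1261. Nr3c1 had r = 0.57 with it (permutation p = 0.00094, adjusted 0.0129; rho = 0.57, permutation p = 0.00095, adjusted 0.0317), 0.51 without the 2 farthest rats and 0.60 without 4KAH27. Nr3c2 had r = 0.50 (permutation p = 0.00583, adjusted 0.0283; rho = 0.56, permutation p = 0.00151, adjusted 0.0317), 0.60 without the 2 farthest rats and 0.56 without 4KAH27. Their part in the receptor values was not tested.

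With all 30 rats, 5 of the 7 induced genes passed with the hypoxia list and 3 with the clock list. Here too the share of all genes was not measured. Rat 4KAH27 had the highest level of the 30 rats in both lists, 9.67 for hypoxia and 10.56 for clock genes. Fkbp5 and the hypoxia list had r = 0.75 (permutation p = 1e-04, adjusted 0.0063; rho = 0.50, permutation p = 0.00538, adjusted 0.0565), 0.34 without the 2 farthest rats and 0.47 without 4KAH27. Mt2A and the hypoxia list had r = 0.74 (permutation p = 0.00021, adjusted 0.00661; rho = 0.37, permutation p = 0.0459, adjusted 0.181), 0.45 without the 2 farthest rats and 0.40 without 4KAH27. Sgk1 and the clock list had r = 0.59 (permutation p = 0.00244, adjusted 0.0171; rho = 0.52, permutation p = 0.00317, adjusted 0.0499), 0.51 without the 2 farthest rats and 0.33 without 4KAH27. None of these 3 passed without that rat. Sets of regional markers, the S number in the sample name and the estimated reads were added after the data were seen, and by Pearson r 0 of 81 such relations passed. By Spearman's rho Nr3c2 passed with the mural cell genes (rho = 0.60, permutation p = 0.00056, adjusted 0.0454; r = 0.54, permutation p = 0.00198, adjusted 0.064, 0.48 without the 2 farthest rats).

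The genes most like a given gene were sought over the 30 rats among 13083 genes with a mean of at least 10 normalized counts, by r of the group-centred log2 values and with no test. Most like Fkbp5 were Castor2 (r = 0.87, 0.77 without 4KAH27), Pip5k1a (0.85 and 0.79), Kansl2 (0.84 and 0.64), Tifa (0.82 and 0.57) and Hmgxb3 (0.81 and 0.64). Next came Fam214b, Gpatch4, Smg6, Htra1 and Nploc4, with r from 0.81 to 0.79. Of these 10, Pip5k1a and Castor2 were also among the 10 most like Fkbp5 without that rat, with Gpt2 (0.78) and Il6r (0.78) between them. Most like Sgk1 were Nfkbia (0.83 and 0.61), Ripk2 (0.83 and 0.60), Slc2a1 (0.81 and 0.67), Bcl2l1 (0.81 and 0.58) and Klf15 (0.80 and 0.63), and without 4KAH27 Per1 came first at 0.75.

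Among the genes most like Mt1 were Myc (0.83 and 0.68), Ampd3 (0.82 and 0.73), Msantd3 (0.80 and 0.60) and Maff (0.79 and 0.55). Most like Cdkn1a were Ifrd1 (0.82 and 0.69), Gpr4 (0.80 and 0.64), Adamts9 (0.79 and 0.63), Maff (0.78 and 0.61) and Ptpn1 (0.78 and 0.80). Maff, on both lists, was at 1433 normalized counts in 4KAH27, with 89.9 as the highest value of any other rat. Most like Nr3c1 were Cdc42bpa (0.94 and 0.94), Dst (0.92 and 0.91), Fam135b (0.91 and 0.91), Mycbp2 (0.90 and 0.91) and Vps13a (0.89 and 0.89). In Nr3c1 itself 4KAH27 was near its group mean, with a log2 difference of -0.12. Leaving that rat out could therefore hardly move the Nr3c1 list, and the contrast with the induced genes is no result. The AKO rat lowest in Nr3c1, at 736 normalized counts, was not left out here, so its part in this list was not tested.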

How the data were processed

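The authors aligned reads of brain RNA in Partek Flow to the rn7 genome, counted them over the genes of Ensembl 105 and used DESeq2 to normalize the counts. What the authors deposited is a signal in units of normalized counts for 30 rats. For each rat, the value that 1 read takes was estimated as the step whose multiples hold most values below 100. Between 80.6% and 83.8% were whole multiples (tolerance 0.02 reads), so whole reads were not recovered, and estimated reads are the total over that step.

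Comparisons ran in R 4.3.3 with limma 3.58.1 (trended eBayes after lmFit, two-sided) on log2(normalized count + 1), with the rats of both groups, no covariate and genes with a mean of at least 1. P-values were adjusted by Benjamini-Hochberg over all tested genes with a threshold of 0.05. Correlations used Python 3.11.15 with numpy 2.4.6, pandas 2.3.3 and scipy 1.17.1, on values centred on group means, with 100000 permutations and adjustment over 36 pairs, 63 relations with lists and 81 with regional measures. The level of a list is the mean log2 value of its measured genes.

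The genes and lists were chosen with earlier results of these data known. Named are the 9 genes, from each other list at most 4 genes with the smallest unadjusted p-value in any comparison, and the genes most like 5 of the 9. The genes named for rat 4KAH27, the relations described singly and the genes most like a gene without that rat were chosen after their values were seen, as was the share of all gene pairs. Symbols, neighbours and promoters came from RefSeq (GRCr8).

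Alternatives were 1 fit of all 30 rats, other pseudocounts (0.5 or 5), a filter at a mean of 10 or none, quantile normalization, median-ratio rescaling, the S number in the sample name as a covariate, subsets of AKO rats by name, Spearman's rho, and leaving out 10RT43 and 10RT46 or each rat in turn. Chosen after seeing the data were leaving out 4KAH27, leaving out rats with a log2 level above 8 for cerebellum or pineal gland, 6 for choroid plexus or 7 for olfactory bulb genes, leaving out 6KAH98 with 10RT46 or with those rats, and the olfactory bulb list as a covariate.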

Additional observations from a re-analysis of the deposited data

Results flagged for a closer look

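A rat was singled out where the distance to the closest value of the same group, over the range of that group, was above the 95% value of Dixon's test. Distances were taken on normalized counts, not on log2 values, so a low rat may be missed. For values with a normal spread, chance flags about 1 in 20 groups, or 1.35 of the 27 examined, and 8 were found. Counts need not have such a spread, so 1.35 is only a guide.

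AKO rat 4KAH27 was far above the other 9 AKO rats in 6 genes: Fkbp5 at 3988 normalized counts (gap 0.731 of the range), Sgk1 at 5097.5 (0.705), Pdk4 at 683 (0.801), Cdkn1a at 1114 (0.756), Mt1 at 883 (0.904) and Mt2A at 1780.1 (0.889). AKO rat 6KAH98 was far below the others in both receptor genes, with Nr3c1 at 736 (0.475) and Nr3c2 at 487 (0.540). The 6 values of 4KAH27 come from 1 library and are not 6 separate events, and the same holds for the 2 values of 6KAH98. What sets these rats apart was not tested.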

How the results depend on the processing

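None of the 9 genes was called by limma in HIP vs. WT rats under any alternative or with any rat left out, and the unadjusted count was 0 under all 11 alternatives and 0 to 1 with a rat left out. In AKO vs. WT and HIP vs. AKO rats, every log2 fold change of the 9 genes kept its direction under the 13 alternatives and with any rat left out; unadjusted counts were 4 to 7 and 4 to 6 under the alternatives and 4 to 6 in both with a rat left out.

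Directions turned in HIP vs. WT rats, where none had passed. Without 10RT43 and 10RT46 they were 0.0663 for Nr3c1, -0.0148 for Nr3c2, -0.077 for Fkbp5 and -0.0864 for Cdkn1a, and the log2 fold change of Mt1 in HIP vs. WT rats was -0.00302. Without rats rich in genes of other tissues they were -0.0147 for Nr3c2, -0.0809 for Zbtb16 and -0.0392 for Mt1. The S number gave -0.014 for Nr3c2, and with quantile normalization the log2 fold change of Cdkn1a in HIP vs. WT rats was -0.0195. With 1 rat left out the ranges were -0.0452 to 0.0301 for Nr3c1, -0.00048 to 0.0658 for Nr3c2, -0.0747 to 0.103 for Fkbp5, -0.0171 to 0.347 for Zbtb16, -0.0193 to 0.166 for Pdk4 and -0.0911 to 0.115 for Cdkn1a. Mt1 and Mt2A went to r = -0.13, and Fkbp5 and Mt2A to -0.24, without 4KAH27 and the rats rich in genes of other tissues.

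The genes called in AKO vs. WT rats were 27 with all rats in one fit, 31 with the S number, 0 with KAH-named rats alone, 68 with AKO-named rats alone and 3 without rats rich in genes of other tissues; in HIP vs. AKO rats they were 56 in one fit, 70 without 10RT43 and 10RT46, 3 with KAH-named rats, 120 with AKO-named rats and 3 without rats rich in genes of other tissues. With 1 rat left out they were 0 to 0 in HIP vs. WT, 10 to 39 in AKO vs. WT and 17 to 70 in HIP vs. AKO rats. Pairs past the threshold were 10 by Spearman's rho, 13 without 4KAH27, 5 without 4KAH27, 10RT43 and 10RT46, and 3 without 4KAH27 and the rats rich in genes of other tissues (13 to 23 with 1 rat left out). Relations with lists were 4, 2, 2 and 0 in the same order (2 to 25). Fewer rats were tested where rats were left out; otherwise the cause was not tested. These lists of rats were chosen after seeing the data, apart from 10RT43 and 10RT46.

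With 10 rats a group, a spread as wide as that of Mt1 gives a wide interval, and differences within that interval are not excluded. Low counts limit Lcn2 and Avp. The labels give no age. The paper states ages for HIP, WT and some AKO rats, and from the labels it is not clear which holds for these AKO rats. Time of death and hormone levels are not analysed here, so these cannot be told apart from the groups or from single rats, and neither can the KAH and AKO names.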
